A study of Rattus norvegicus with 12 samples.

Results

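miR-137 and miR-153 are described here in the right hippocampus of 12 adult male Sprague Dawley rats, of which 4 were given vehicle and 8 were given ethanol. The members are every listed mature miRNA whose name has the stem miR-137 or miR-153, and 4 of the 753 miRNAs in the count lists met that rule: rno-miR-137-3p, rno-miR-137-5p, rno-miR-153-3p and rno-miR-153-5p. Ethanol rats received a single injection of 4 g/kg ethanol in saline at postnatal day 70 to 80, vehicle rats were injected without ethanol, and tissue was taken 3 h later in both groups. The labels name no other treatment, and each library came from 1 rat. The labels name the right hippocampus and the methods of the study name punches of the dorsal hippocampus. Rats are numbered here as in the labels (vehicle rats 9, 10, 19 and 20, and ethanol rats 3, 4, 7, 8, 15, 16, 23 and 24).

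A miRNA is cut from a hairpin precursor, and 1 arm of the hairpin (5p or 3p) is usually loaded into an Argonaute protein while the other is mostly degraded. The loaded arm pairs with messenger RNAs mainly through its seed, the bases near its 5′ end, and lowers their translation and stability. miR-137 is enriched in neurons, where it has been tied to dendrite growth, synaptic vesicle release and the balance of progenitor division and maturation, and its gene lies in a human locus associated with schizophrenia. miR-153 is also enriched in brain. It is made from the introns of a gene of secretory vesicles, and its known targets include transcripts of alpha-synuclein, the amyloid precursor protein and SNAP-25. These are statements of background. The libraries were made from whole tissue, so they do not show which cells held either miRNA, and a smaller number of cells of a type cannot be told apart from less RNA in each cell.

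The mature sequences of the 4 arms, from RefSeq on rat build GRCr8, are shown because the seed decides which transcripts a miRNA can pair with. The seed, bases 2 to 8 counted from 1 at the 5′ end, is in capitals.
rno-miR-137-3p: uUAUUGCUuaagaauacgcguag
rno-miR-137-5p: aCGGGUAUucuuggguggauaa
rno-miR-153-3p: uUGCAUAGucacaaaagugauc
rno-miR-153-5p: gUCAUUUUugugauguugcagcu
The 3p arms were 23 bases long for miR-137 and 22 for miR-153. Their seeds held the same base at 1 of the 7 positions, so the miRNAs are not members of a common seed family. Among the 693 mature rat miRNA names in RefSeq, no other name shared bases 2 to 8 with any of the 4 arms. With the shorter match of bases 2 to 7, a single other miRNA was found, miR-448-3p, which begins with the same 7 bases as miR-153-3p and had the same base at 9 of the 21 positions compared. Its sequence is shown with bases 2 to 7 in capitals.
rno-miR-448-3p: uUGCAUAuguaggauguccca

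The precursors are shown with both mature arms in capitals, since each arm is compared with its partner further on. The Mir137 hairpin is 102 bases long and lies on chr2:209165709-209165810 of GRCr8, plus strand, within a long non-coding RNA gene.
Mir137: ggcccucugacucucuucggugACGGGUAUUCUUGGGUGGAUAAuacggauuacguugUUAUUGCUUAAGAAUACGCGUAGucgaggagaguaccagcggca
The Mir153 hairpin is 87 bases long and lies on chr6:144306594-144306680 of GRCr8, plus strand, within the span of Ptprn2, which encodes a membrane protein of dense-core vesicles, and of a long non-coding RNA gene.
Mir153: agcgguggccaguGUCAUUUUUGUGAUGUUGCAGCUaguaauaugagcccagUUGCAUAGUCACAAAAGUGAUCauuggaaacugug
The arms were separated by 14 bases in Mir137 and by 16 bases in Mir153.

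Total counts per library ranged from 2243413 to 4917928 in vehicle rats and from 1960704 to 3598771 in ethanol rats. The 4 members together held 0.139% to 0.192% of them. A count of 3, taken as the smallest detectable amount, was 0.610 to 1.53 CPM, the unit in which each library's counts are scaled to the same total. This floor, like the intervals on shares of reads, covers counting error only, because no molecular identifiers were counted. All members passed the filter on low counts, as did 420 of the 753 miRNAs. No library repeated another: over 66 pairs of libraries, the lowest chi-square per degree of freedom was 39.1.

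miR-153-3p was the most read member, and its level was close in all 4 vehicle rats. It measured 1441, 1521, 1495 and 1467 CPM in vehicle rats 9, 10, 19 and 20, with a mean of 1481 ± 34.7 (SD, n = 4). In ethanol rats the lowest value was 1256 CPM in rat 8, the median was 1407 and the highest was 1678 in rat 3, with a mean of 1450 ± 136 (SD, n = 8). Of the ethanol rats, 5 were below every vehicle rat, 2 were above every vehicle rat and 1 was between them, so ethanol values lay on both sides of the vehicle range. The values rest on 2638 to 7112 reads per library. By rank within a library, miR-153-3p was between the 61st and the 76th most read miRNA.

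miR-137-3p had fewer reads and varied more. It measured 254.9, 251.5, 243.7 and 276.0 CPM in vehicle rats 9, 10, 19 and 20, with a mean of 257 ± 13.8 (SD, n = 4). In ethanol rats the lowest value was 136.7 CPM in rat 3, the median was 233 and the highest was 276 in rat 16, with a mean of 226 ± 46.1 (SD, n = 8). Of the ethanol rats, 5 were below every vehicle rat, 1 was above and 2 were between them. The reads behind these values numbered 295 to 1297, and the rank within a library ran from 129 to 171. Without rat 3, the ethanol mean was 239 ± 31.0 CPM (SD, n = 7).

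The 5p arms had few reads. miR-153-5p was read 54, 53, 102 and 99 times in vehicle rats 9, 10, 19 and 20, and 33 to 88 times in ethanol rats with a median of 51.5. Scaled to library size, its level was 20.7 ± 2.03 CPM in vehicle rats (SD, n = 4) and 20.7 ± 3.87 CPM in ethanol rats (SD, n = 8). miR-137-5p was read only 8, 6, 14 and 17 times in vehicle rats 9, 10, 19 and 20, and 3 to 10 times in ethanol rats with a median of 6. Its level was 2.94 ± 0.48 CPM in vehicle rats (SD, n = 4) and 2.16 ± 0.64 CPM in ethanol rats (SD, n = 8), close to the floor. It reached 10 reads in only 3 libraries, 2 of vehicle and 1 of ethanol, which is the fewest that the filter allows.

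**Figure D1:**
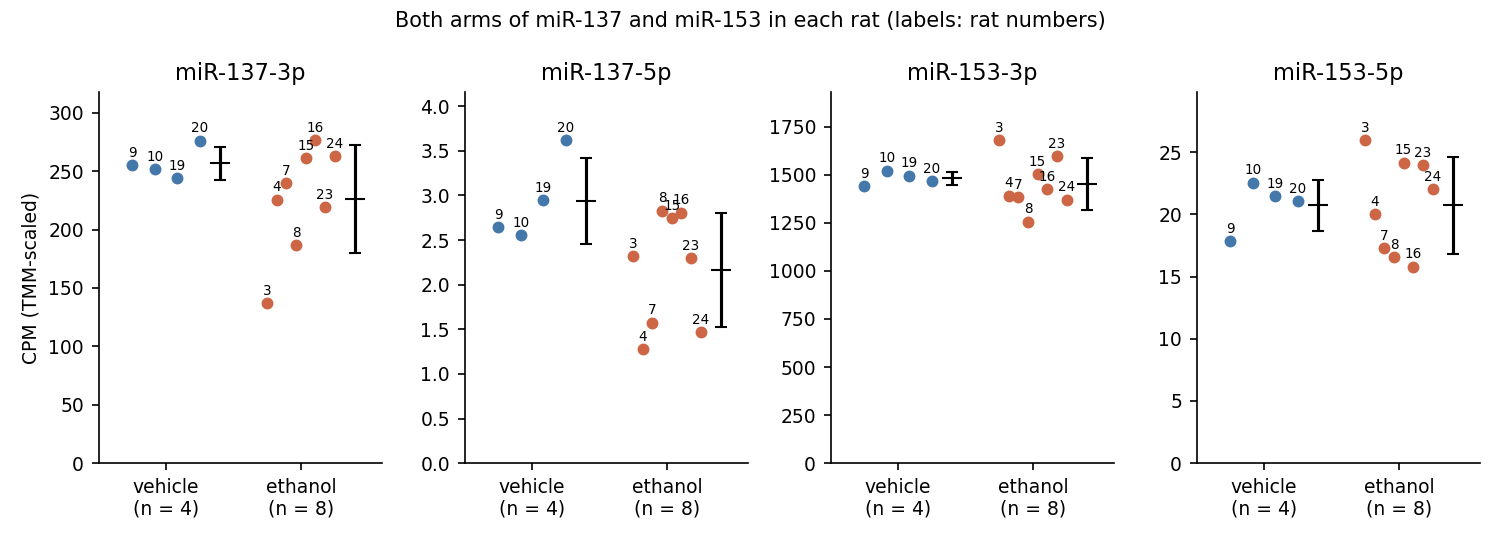
CPM (y axis, from 0) of miR-137-3p, miR-137-5p, miR-153-3p and miR-153-5p in each vehicle (blue) and ethanol (orange) rat, numbered as in the labels, with the mean and SD of each group in black. Ethanol rat 3 has the lowest miR-137-3p (136.7 CPM) and the highest miR-153-3p (1678 CPM) of the 12 rats.

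No difference between ethanol and vehicle rats larger than the spread between rats was detected for either 3p arm. For miR-153-3p the log2 fold change of ethanol against vehicle was -0.03 (SE 0.08, 95% interval -0.19 to 0.13), with an adjusted p of 0.987 by edgeR's quasi-likelihood test. The exact permutation test of the difference in mean log2 CPM, two-sided over 495 assignments of rats, gave p = 0.616. On the linear scale the interval ran from -12.5% to 9.56%, so larger changes in either direction lie outside it.

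For miR-137-3p the log2 fold change was -0.18 (SE 0.15, 95% interval -0.52 to 0.15), with an adjusted p of 0.971 by edgeR's quasi-likelihood test and p = 0.248 by the exact permutation test. On the linear scale this interval ran from -30.1% to 11.1%, wider than that of miR-153-3p. Leaving out ethanol rat 3 brought the log2 fold change to -0.10. With the log2 total of each library as a covariate it was -0.09 (SE 0.16).

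Neither 5p arm passed the test, and their intervals were wider than those of their partners. miR-137-5p had a log2 fold change of -0.45 (SE 0.25, 95% interval -0.99 to 0.10) and an adjusted p of 0.971 by edgeR's quasi-likelihood test. The exact permutation test gave p = 0.0606, above the threshold of 0.05, where the smallest p that these groups allow is 0.00202. The values of this arm rest on 6 to 17 reads per vehicle rat and 3 to 10 per ethanol rat. It passed the filter by 2 vehicle libraries and 1 ethanol library. These had the highest totals of all libraries: 4917928 in vehicle rat 19, 4465882 in vehicle rat 20 and 3598771 in ethanol rat 15. Vehicle rats 19 and 20 also had the highest levels of this arm (2.94 and 3.62 CPM). Ethanol rat 15 reached 10 reads at 2.75 CPM, and ethanol rat 8 had 7 reads at 2.83 CPM. The parts of depth and level in how this arm passed were not tested. With the log2 library total as a covariate its log2 fold change was -0.30 (SE 0.30), and without vehicle rat 20 it was -0.32 (SE 0.29). miR-153-5p had a log2 fold change of 0.00 (SE 0.14, 95% interval -0.30 to 0.31), an adjusted p of 1.00 by edgeR's quasi-likelihood test and an exact permutation p of 0.905.

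As the background for these values, 0 of the 420 miRNAs tested passed an adjusted p of 0.05 by edgeR's quasi-likelihood test (0%), and DESeq2 called 1. At an unadjusted p of 0.05, 17 miRNAs passed (4.05%), and none of the 4 members was among them. The groups did not overlap in log2 CPM for 1 miRNA (0.238%), which was not a member. Fold changes of all 420 miRNAs had a median of -0.02 on the log2 scale, with 227 lower and 193 higher.

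The members were set beside 9 other arms known to be enriched in neurons, among them miR-124-3p, which represses non-neuronal transcripts, miR-9a, which acts in neurogenesis, miR-128-3p, which limits neuronal excitability, and miR-132-3p and miR-212-3p, which are cut from neighbouring hairpins and induced by activity. One of the 9, miR-129-5p, was listed at 0 in all 12 libraries and was not tested. The annotation and counting method are not known, so this 0 does not show that the arm was absent from the tissue. Mean levels over 12 rats descended from miR-9a-5p (23476 CPM) through miR-128-3p (7392) and miR-124-3p (3137) to miR-153-3p (1461 ± 111, SD). They went on through miR-9a-3p (935), miR-132-3p (743), miR-138-5p (622), miR-218a-5p (509) and miR-212-3p (247) to miR-137-3p (236 ± 40.4, SD). Mature arms have nearly the same length, so CPM was compared between them without a correction for length. How well each sequence was captured in a library was not measured, so this is an order of reads and not of amounts in tissue. miR-212-3p was above miR-137-3p in 9 of 12 rats and their ranges overlapped, so the order of these neighbours changed from rat to rat. Their difference within rats was not tested.

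Among all miRNAs, miR-153-3p ranked 70th by its mean. Its neighbours were miR-879-5p above it (1548 ± 178 CPM, SD, n = 12) and let-7e-5p below it (1435 ± 126 CPM). miR-879-5p exceeded miR-153-3p in 8 rats and let-7e-5p exceeded it in 5, so the order of these 3 changed from rat to rat. miR-137-3p ranked 135th, between miR-383-5p (239 ± 83.3 CPM) and miR-127-5p (235 ± 19.5 CPM), each of which was above it in 5 of 12 rats.

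**Figure D2:**
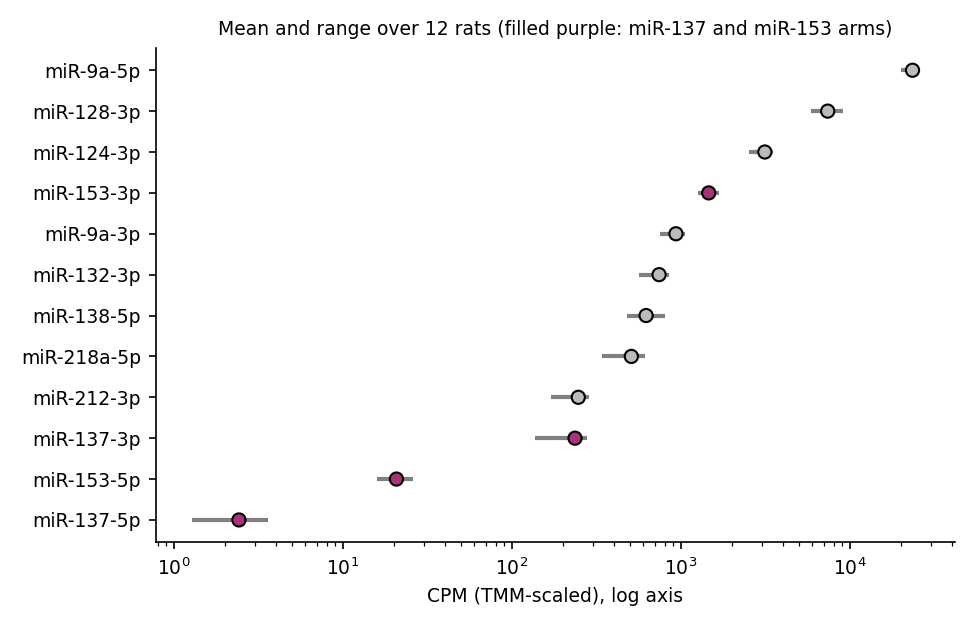
Mean CPM (point) and range over 12 rats (line) on a log axis for the 4 members (purple) and the 8 neuron-enriched arms with reads (grey). miR-153-3p (1461 CPM) lies between miR-124-3p and miR-9a-3p, and miR-137-3p (236 CPM) lies at the low end of the list.

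None of the 8 neuron-enriched arms tested passed an unadjusted p of 0.05 by edgeR's quasi-likelihood test, where the lowest was 0.0975 for miR-138-5p, an arm abundant at synapses. Their log2 fold changes ran from -0.22 to -0.04 with a median of -0.10, against the median of -0.02 over all 420 miRNAs, and 8 of 8 were negative. The values of miR-153-3p (-0.03) and miR-137-3p (-0.18) were negative as well, and the latter lay within that range. The 8 arms were read from the same libraries and are not independent of each other, and without ethanol rat 8 the count was 7 of 8 and the median -0.05.

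**Figure D3:**
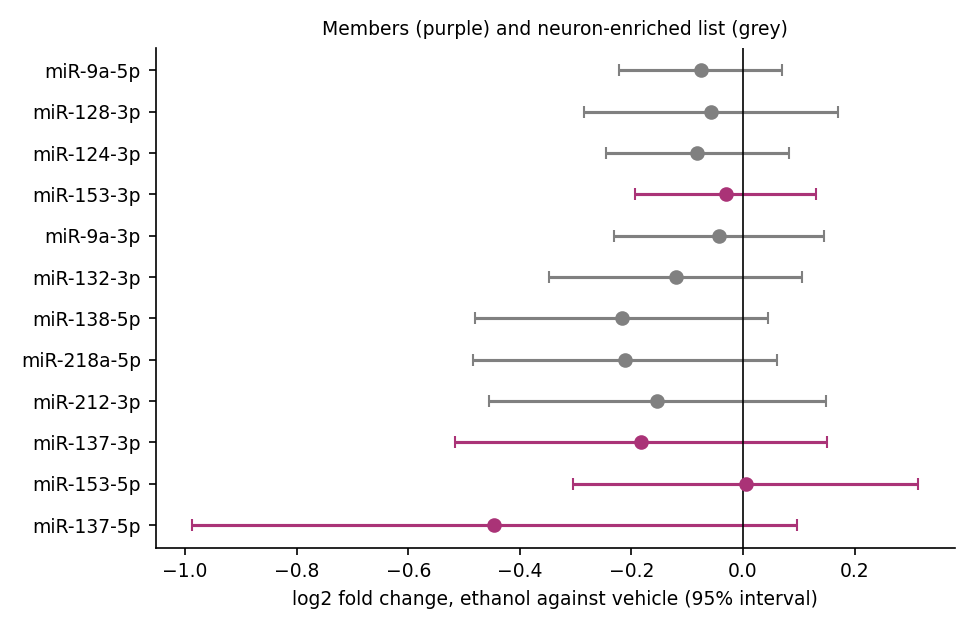
Log2 fold change of ethanol (n = 8) against vehicle (n = 4) on the x axis, as point and 95% interval from edgeR's quasi-likelihood fit, for the 4 members (purple) and 8 neuron-enriched arms (grey). Every interval includes 0, and the interval of miR-137-5p (-0.99 to 0.10) is the widest of those plotted.

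The 3p arms were also described by their spread between rats. The coefficient of variation of miR-153-3p was 2.34% in vehicle rats and 9.38% in ethanol rats, and that of miR-137-3p was 5.37% and 20.4%. Without ethanol rat 3, the ethanol value of miR-137-3p was 13.0%. Whether spread differed between the groups was not tested.

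Against other miRNAs read at 100 CPM or more, the pooled within-group SD of miR-153-3p on the log2 scale was 0.11, the 36th lowest of 184, and that of miR-137-3p was 0.28, the 148th lowest. The median of these 184 was 0.16 over 12 rats. Counting error alone would give an SD of 0.02 for miR-153-3p and 0.06 for miR-137-3p, less than either measured value. The value of miR-137-3p rests on ethanol rat 3: without that rat, an alternative chosen after seeing the data, it was 0.16, the 104th lowest of 184, where the median was 0.15. That of miR-153-3p was then 0.09, the 21st lowest.

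A ratio of 2 counts from the same library does not depend on how libraries are scaled. It can depend on how well each sequence was captured, which was not measured, so it is a ratio of reads. In every rat miR-153-3p had more reads than miR-137-3p. The mean log2 ratio of miR-137-3p to miR-153-3p was -2.65 over 12 rats, or 6.27 reads of miR-153-3p for each read of miR-137-3p. It was negative in 12 of 12 rats (sign permutation over rats, two-sided p = 0.000488, the smallest that 12 rats can give). The ratio was -2.53 ± 0.10 in vehicle rats (SD, n = 4) and -2.71 ± 0.41 in ethanol rats (SD, n = 8), a difference of -0.18 (SE 0.15, exact permutation p = 0.501, adjusted over 3 ratios 0.752).

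Ethanol rat 3 stood apart in this ratio. It had 12.3 reads of miR-153-3p for each read of miR-137-3p, against 5.15 to 7.28 in the other 11 rats. Without it, the difference between groups in the log2 ratio was -0.05. The same library had the lowest summed level of the choroid plexus list of the 12 libraries (16516 CPM) and the highest of the microglia and blood list (714 CPM). The part of either in the ratio was not tested.

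In both hairpins nearly all reads came from the 3p arm. Over all 12 libraries the 5p arm held 1.04% of the reads of miR-137 (93 reads against 8863 of the 3p arm, 95% Wilson interval 0.848% to 1.27%) and 1.41% of those of miR-153 (766 reads against 53648, 95% Wilson interval 1.31% to 1.51%). In single libraries the 5p share of miR-137 ran from 0.555% to 1.67% and that of miR-153 from 1.098% to 1.58%. The log2 ratio of 3p to 5p reads differed between ethanol and vehicle rats by 0.22 (SE 0.22, exact permutation p = 0.487) for miR-137 and by -0.02 (SE 0.09, exact permutation p = 0.834) for miR-153. Adjusted over the 3 ratios, these p values were 0.752 and 0.834. With a pseudocount of 2 in place of 0.5, the difference for miR-137 was 0.08 (exact permutation p = 0.764), and with each rat left out it ran from 0.11 without ethanol rat 24 and 0.12 without ethanol rat 4 to 0.34 without ethanol rat 3.

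**Figure D4:**
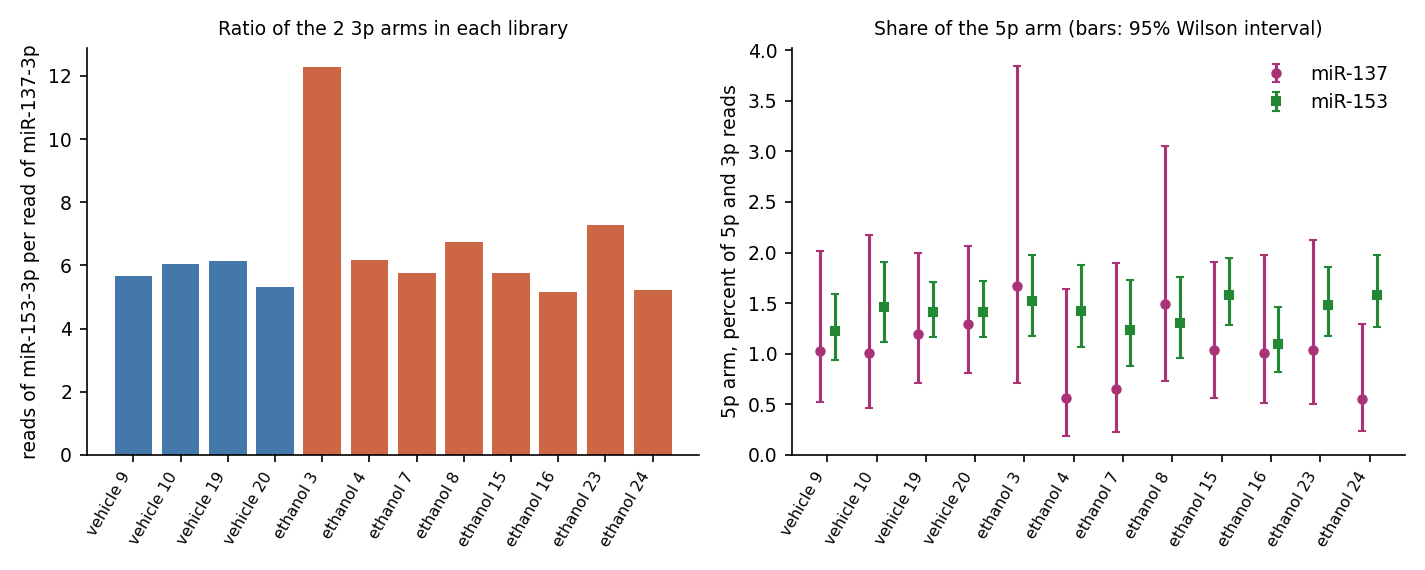
Left, reads of miR-153-3p per read of miR-137-3p in each library, with vehicle in blue and ethanol in orange. Right, the 5p arm as a percent of the 5p and 3p reads of each hairpin, with 95% Wilson intervals. Rat 3 has a ratio of 12.3 against 5.15 to 7.28 in the others, and the 5p share stays under 2% in every library.

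The correlations that follow are descriptions across 12 rats. Each rat's log2 CPM had its group mean subtracted, and all points share library, depth and scaling. Where 2 rats were left out, they were those farthest from the median of the 3p arm in these values, so its range was narrower. For the pair of 3p arms, miR-137-3p set this choice. Within groups, miR-137-3p and miR-153-3p did not rise and fall together (r = -0.39, rho = -0.30), and r was 0.30 without ethanol rats 3 and 16, so its sign rests on those rats. The 2 arms of miR-153, which come from the same precursor, moved together (r = 0.77, rho = 0.76, and r = 0.62 without ethanol rats 3 and 8). The r of the 2 arms of miR-137 is not given here, and its 5p arm had only 3 to 17 reads per library. With the mean of the neuron-enriched list, r was 0.54 for miR-137-3p (rho = 0.59) and 0.37 for miR-153-3p (rho = 0.25). It was 0.59 for miR-137-3p without ethanol rats 3 and 16, and 0.53 for miR-153-3p without ethanol rats 3 and 8.

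The miRNAs with patterns most like each 3p arm were taken as the 5 with the highest r over the 12 rats. For miR-137-3p they were miR-222-3p (0.89), miR-221-5p (0.85), miR-488-3p (0.84), miR-323-3p (0.81) and miR-152-3p (0.80). miR-222 and miR-221 are cut from neighbouring hairpins. Without ethanol rats 3 and 16, the 5 values lay between 0.19 and 0.72, and that of miR-152-3p was the lowest. For miR-153-3p they were miR-337-3p (0.88), miR-101b-3p (0.78), miR-153-5p (0.77), miR-195-5p (0.73) and miR-379-3p (0.72). Without ethanol rats 3 and 8 these lay between 0.24 and 0.79, with miR-379-3p the lowest and miR-101b-3p the highest.

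The hippocampus lies against the choroid plexus of the ventricle, and miR-204-5p, miR-211-5p and miR-448-3p are enriched in that epithelium. Their summed level ran from 28978 to 50267 CPM in vehicle rats and from 16516 to 70880 CPM in ethanol rats. miR-153-3p was highest in the rat with the lowest choroid sum, ethanol rat 3 (1678 CPM), and lowest in the rat with the highest, ethanol rat 8 (1256 CPM). Across 12 rats, within groups, r was -0.82 with the mean of that list (rho = -0.71, and r = -0.60 without ethanol rats 3 and 8). That value was the 6th most negative among 417 miRNAs outside the list, of which 213 had a negative r, and miR-153-5p, at -0.81, was the 8th. The neuron-enriched arms shared the sign in 7 of 8 cases, and r was -0.71 for miR-9a-3p (18th), -0.67 for miR-124-3p (22nd), -0.50 for miR-132-3p, -0.47 for miR-128-3p and -0.43 for miR-9a-5p. It was weaker for miR-138-5p (-0.22, 130th), near 0 for miR-212-3p (-0.003, 211th) and positive for miR-218a-5p (0.40). The negative r is thus not particular to miR-153. With the means of other lists, r of miR-153-3p was -0.23 for vascular, -0.22 for microglia and blood, 0.22 for oligodendrocyte and -0.19 for muscle arms. Without ethanol rats 3 and 8 these were -0.69, -0.57, 0.45 and -0.34, so the choroid list did not then stand apart.

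miR-137-3p did not share this order. Its r with the choroid mean was 0.34 (rho = 0.19), and it became -0.53 without ethanol rats 3 and 16. It was low in both the rat with the lowest and the rat with the highest choroid sum, at 136.7 CPM in rat 3 and 186 CPM in rat 8. With the choroid mean as a covariate, the log2 fold change of ethanol was -0.06 (SE 0.06) for miR-153-3p and -0.16 (SE 0.15) for miR-137-3p, and neither passed the test (unadjusted p = 0.314 and 0.306 by edgeR's quasi-likelihood test). CPM are shares of a library, and the part of the choroid reads in the level of miR-153-3p was not tested further.

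**Figure D5:**
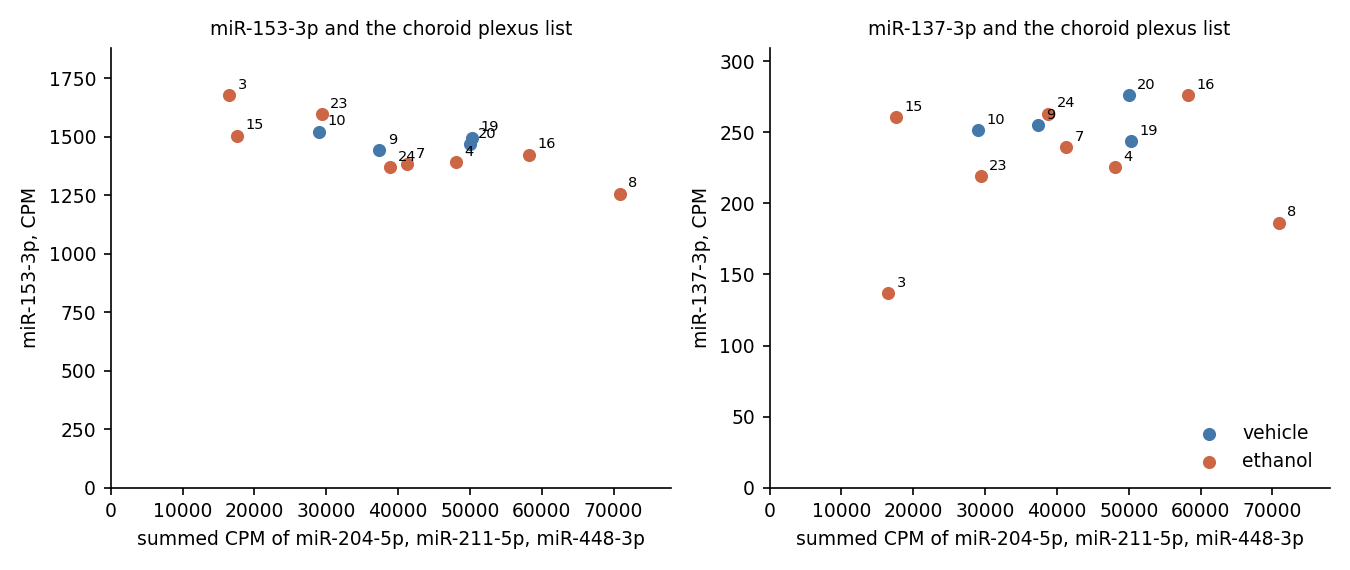
CPM of miR-153-3p (left) and miR-137-3p (right) against the summed CPM of miR-204-5p, miR-211-5p and miR-448-3p in each rat, with vehicle in blue and ethanol in orange and rat numbers beside the points. miR-153-3p runs from 1678 CPM at the lowest choroid sum (rat 3) to 1256 CPM at the highest (rat 8), and miR-137-3p is low at both ends (136.7 and 186 CPM).

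miR-448-3p is both a choroid arm and the miRNA that shares the first 7 bases of miR-153-3p. It was read at 272 to 1431 CPM (mean 779 ± 360, SD, n = 12), below miR-153-3p on average, and its log2 fold change was -0.06 (SE 0.41). In ethanol rat 3, where miR-153-3p was highest, miR-448-3p was at its lowest of 272 CPM, and in ethanol rat 8 it was at its highest of 1431 CPM.

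The other marker lists were measured in the same libraries. Summed levels ran, in vehicle and then in ethanol rats, from 9332 to 17658 and from 9827 to 19011 CPM for the 3 oligodendrocyte arms, whose log2 fold changes were positive in 3 of 3 (median 0.19), with none past an unadjusted p of 0.05 by edgeR's quasi-likelihood test. For the 4 vascular arms they ran from 38686 to 48381 and from 32603 to 67951 CPM. For the 5 microglia and blood arms they ran from 457 to 584 and from 345 to 714 CPM. Of these 5 arms, 1 passed an unadjusted p of 0.05 by edgeR's quasi-likelihood test, as did 4.05% of all 420 miRNAs. The neuron-enriched sum ran from 35552 to 40829 and from 32131 to 40369 CPM. The muscle list, of which 3 of 4 arms were tested and 1 was at 0 in some library, summed to 1626 to 1764 CPM in vehicle rats 9, 19 and 20 but 126 in rat 10, and to 112 to 290 CPM in 7 ethanol rats but 1711 in rat 16. The ranges of the groups thus overlapped, and 1 of the 3 arms tested passed an unadjusted p of 0.05 by edgeR's quasi-likelihood test and 0 an adjusted one. With the muscle mean as a covariate, the log2 fold changes were -0.14 (SE 0.19) for miR-137-3p, -0.06 (SE 0.09) for miR-153-3p, -0.24 (SE 0.33) for miR-137-5p and -0.18 (SE 0.16) for miR-153-5p, so no member passed the test with or without it.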

How the data were processed

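Small RNA was sequenced from 12 rats. The authors produced an expected count (an estimated count of reads) for each mature miRNA and deposited 1 list of them per rat, not scaled to library size. The submitters' processing notes name cutadapt, Partek and build rn5. The miRNA annotation and the counting method are not given in the sources used here, nor is the sequencing set of each library, so sets were not compared. The study describes 8 rats in each group, and vehicle rats other than these 4 were not analysed here.

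Counts were rounded. A miRNA was left out when its reads fell short of 10 in at least 10 libraries. Groups were compared in edgeR 4.0.16 (R 4.3.3) with TMM factors, the quasi-likelihood test and Benjamini-Hochberg adjustment over 420 miRNAs, and by exact permutation (SciPy 1.17.1, absolute difference in means). CPM were TMM-scaled, log2 CPM used a prior count of 2, and log2 ratios of reads a pseudocount of 0.5. DESeq2 1.42.0 and limma 3.58.1 were alternatives. Scripts were tested on simulated data. A few estimated counts of the 3p arms were fractional (3 libraries for miR-137-3p, 1 for miR-153-3p, by at most 0.152 of a read). In the neuron-enriched list they were fractional in all 12 libraries for miR-9a-5p, miR-9a-3p, miR-128-3p, miR-132-3p and miR-218a-5p. The number was 6 for miR-138-5p, 5 for miR-124-3p and 2 for miR-212-3p.

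Named miRNAs were the members, neuron-enriched arms, seed matches, rank neighbours, the 5 most alike for each 3p arm and marker lists (neuron, choroid plexus, oligodendrocyte, vascular, microglia and blood, muscle). Members and lists were chosen with earlier results of these data known. Sequences are from RefSeq, where 688 of the 753 names matched. p-values of group comparisons set a difference against the spread between rats, each rat taken as independent. The paper states that rats were pair-housed and that a condition could hold littermates, and cage and litter were not modelled.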

Additional observations from a re-analysis of the deposited data

Results flagged for a closer look

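The log2 ratio of miR-137-3p to miR-153-3p in ethanol rat 3 was -3.62, far below the other 7 ethanol rats, of which the nearest was -2.86 and the farthest -2.36. The gap to the nearest rat was 0.600 of the range of the group, above Dixon's critical value for 8 samples. Of 14 groups of values examined, 1 was marked in this way, where chance marks about 0.7.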

How the results depend on the processing

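The direction of miR-137-3p (log2 fold change -0.25 to -0.09 over 11 alternatives, -0.23 to -0.10 with each rat left out) and of miR-137-5p (-0.48 to -0.24 over the 9 that gave a value, -0.51 to -0.32 with each rat left out) did not change, and no member passed an adjusted p of 0.05 under any alternative. miR-137-5p was not tested where 10 reads were required in at least 10 libraries or in down-sampled counts. miR-153-3p ran from -0.0637 to 0.0135 with each rat left out, positive only without ethanol rat 8. The value of miR-153-5p, near 0, turned negative with library totals alone (-0.0275), the library median (-0.000883), limma-trend (-0.0164), down-sampled counts (-0.0611), the choroid plexus covariate (-0.0703) and the muscle covariate (-0.18), and ran from -0.0724 to 0.0619 with each rat left out. The difference between groups in the ratio of miR-153-3p to miR-153-5p ran from -0.0711 to 0.0345 with each rat left out, positive without vehicle rat 9, ethanol rat 15 or ethanol rat 24. DESeq2 called 1 miRNA at an adjusted p of 0.05, and leaving out rats gave 0 to 3 (3 without ethanol rat 16). At an unadjusted p of 0.05 the count was 11 with the log2 library total as a covariate and 5 to 21 with each rat left out (5 without vehicle rat 20, 9 without ethanol rat 3, 10 without vehicle rat 9, and 11 without ethanol rat 4 or 8). The causes were not tested. No paired analysis was possible because the groups share no replicate number. Depth limits miR-137-5p most, at 3 to 17 reads per library.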
